A study of Homo sapiens with 4 samples.

Results

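The expression of 10 genes of the JAK-STAT pathway was compared in a pair of breast cancer cell lines. The genes encode the JAK kinases JAK1, JAK2, JAK3 and TYK2, the transcription factors STAT3, STAT5A, STAT5B and STAT6, and the feedback inhibitors SOCS1 and SOCS3. They were chosen by their gene names, and each matched 1 of the 57815 genes in the deposited table. MDA-MB-231 is a human triple-negative cell line, and LM2-4175 is a cell line of the same origin with high metastasis to the lung. Neither cell line was treated, and both were grown in DMEM with foetal bovine serum. RNA-Seq of total RNA was done on 2 libraries per cell line. The authors combined these libraries in 1 value per gene and cell line, so that no value per library was at hand for a replicate error or a statistical test. The labels do not say whether the libraries of a cell line came from separate cultures.

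Expression was given as FPKM (fragments per kilobase of transcript, divided by library size), which corrects for gene length, so that levels of different genes can be set side by side. Every FPKM carries a lower and an upper bound from the authors' software, and those bounds are given in brackets throughout. What the bounds cover, and whether they hold the spread between libraries of a cell line, is not given in the sources used here. The depth per library is not in the table, and the precision was therefore read from the bounds. The upper bound lay 38.6% above the FPKM in MDA-MB-231 and 38.1% above it in LM2-4175 for the median gene. A gene was tested where its mean over both cell lines was at least 0.5 FPKM and the status of its estimate was OK, which held for 13911 genes and for 9 of the 10 genes described here. A difference was called where the ratio of FPKM + 1 was at least 1.5-fold and the bounds of the cell lines did not overlap. Of all tested genes 9.27% were called, 4.67% as higher in LM2-4175 and 4.61% as lower, and 22.1% passed the fold alone. A called difference sets 2 pooled profiles apart and is no test across replicates.

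The labelled cell type was checked against its markers. The summed level of 6 mesenchymal and basal markers was 2554 FPKM in MDA-MB-231 and 2794 FPKM in LM2-4175, and VIM, the gene of the intermediate filament vimentin, was the highest of them with 1355 and 1768 FPKM. CDH2 was near 0 with 0.221 and 0.0839 FPKM, and of the 5 markers tested SPARC was called higher in LM2-4175 (13.6 against 231.7 FPKM) and FN1 lower (313.7 against 117.3 FPKM). The summed level of 6 luminal markers was 464.7 and 188.9 FPKM, and most of it was KRT18 with 448.5 and 181.1 FPKM. The hormone receptors ESR1 and PGR were below 1 FPKM in both cell lines, and KRT18 and EPCAM were called lower in LM2-4175. The 10 leukocyte markers summed to 3.20 and 4.12 FPKM, and CD2, CD3E and HLA-DRA were listed at 0 in both cell lines. Most of the sum came from the 2 leukocyte markers tested, CORO1A (1.585 against 2.222 FPKM) and CD14 (1.172 against 1.75 FPKM). Both were listed higher in LM2-4175, and neither was called. The part of these marker differences in the values below was not tested.

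In the JAK-STAT pathway, a cytokine brings together receptor chains that carry JAK kinases. The kinases phosphorylate the receptor, STAT proteins dock there and are phosphorylated in turn, and paired STATs enter the nucleus and bind DNA. SOCS genes are among the targets that STATs switch on, and their proteins bind JAKs or receptors and damp the signal. JAK1 and TYK2 serve many receptors, among them those of the IL-6 and interferon families. JAK2 serves the receptors of growth hormone, prolactin and erythropoietin, and JAK3 works with the common gamma chain of lymphocyte cytokines. In breast, STAT5A is known for its part in milk gland development, and STAT3 is known for the response to IL-6 family cytokines and is often active in triple-negative tumours. The state of the pathway is set by phosphorylation, which transcript levels do not measure.

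STAT dimers are known to bind palindromes with TTC at the left and GAA at the right, often spaced by 4 bases for STAT6. The 250 bases before the annotated start of the canonical transcript (GENCODE 44, genome build GRCh37) were searched for TTCNNNNGAA, which reads the same on either strand. It was found in 4.14% of the 19109 windows of this length before protein-coding genes, and in 1 of the 10 genes, STAT6 itself. The match began 243 bases before the start, in the window chr12:57505146-57505395 on the minus strand, of which 71 bases are exonic in other transcripts of the gene. The stretch around it is shown from 5′ to 3′, because it is the only match among the 10 genes, with the match in capitals.
STAT6: ggtgactTTCTGGAGAAaagctgatgcttt
This is a match of letters, and no binding was measured here.

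None of the 9 genes tested was called, and none passed the fold of 1.5 alone with FPKM as deposited. In RNA of whole cultures, fewer cells with a transcript and less of it per cell cannot be told apart. At the background of 9.27%, a group of 9 genes would hold fewer than 1 call, so that this count does not set the genes apart from the rest of the transcriptome. TYK2, STAT5B and STAT6 were listed higher in LM2-4175 and JAK1, JAK2, STAT3, STAT5A, SOCS1 and SOCS3 lower. The median log2 ratio of FPKM + 1 was -0.16 over the 9 genes and -0.04 over all genes tested, of which 54.5% were lower in LM2-4175. The median size of the log2 ratio was 0.21 over the 9 genes and 0.28 over all genes. Low expression was not shared by the group, since 7 of the genes had a mean of at least 5 FPKM. Of the 9519 genes that reached this level, 321 were called higher and 443 lower, and none of the 7 was among them.

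**Figure D1:**
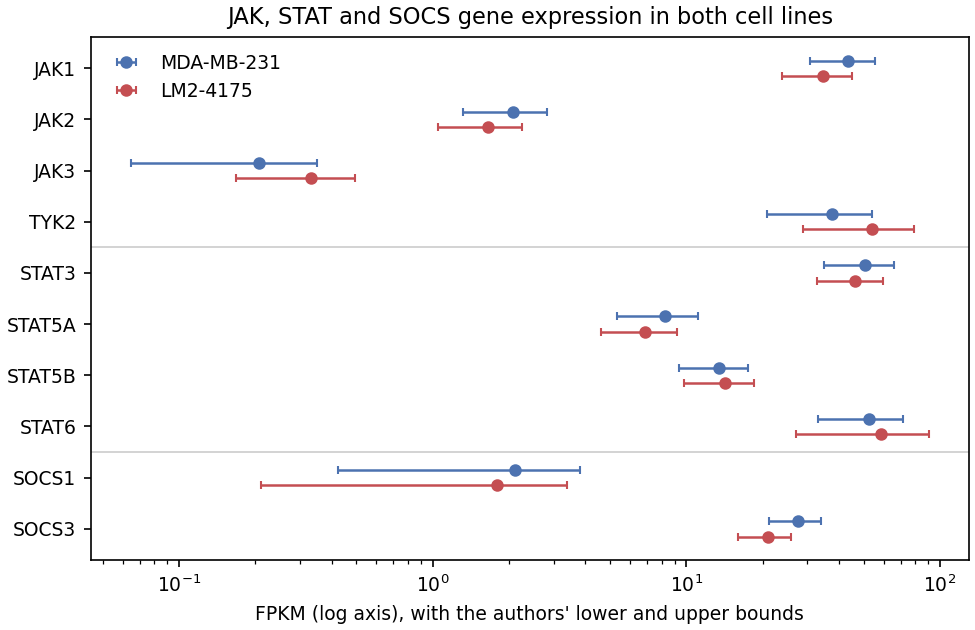
FPKM of the 10 genes (log axis) in MDA-MB-231 (blue) and LM2-4175 (red). Points are the value of the pooled libraries of a cell line and bars run from the authors' lower to their upper bound. The bars of the cell lines overlap for every gene shown, and the levels run from 0.207 FPKM for JAK3 to 58.7 FPKM for STAT6.

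The JAK kinases were ordered alike at the low end and differently at the top. JAK1 (ENSG00000162434.7, chr1:65298906-65533437, minus strand) was at 43.2 FPKM [30.8 to 55.7] in MDA-MB-231, compared with 34.5 FPKM [23.9 to 45.0] in LM2-4175. The ratio was 0.797, and the bounds allow ratios from 0.430 to 1.46. JAK1 was the highest JAK gene in MDA-MB-231 and the second in LM2-4175, with overlapping bounds. Of its exon bases, 7.3% are shared with other annotated genes, among them RAVER2 and LINC01359.

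TYK2 (ENSG00000105397.9, chr19:10461209-10491284, minus strand) was at 37.5 FPKM [20.8 to 54.1] in MDA-MB-231, compared with 54.1 FPKM [28.9 to 79.2] in LM2-4175. This was the largest difference among the 9 genes tested, with a ratio of 1.44 and a log2 ratio of 0.52. The bounds overlapped widely and allow ratios from 0.535 to 3.80, and bounds of this width would have come apart only at a ratio of at least 2.70. Under scaling to the same sum and quantile normalization its log2 ratio was 0.60 and 0.63, which is past 1.5-fold, and it was not called because the bounds still overlapped. In size, the TYK2 difference was larger than that of 73.7% of all genes tested. The order of JAK1 and TYK2 was inverted between the cell lines. TYK2 was at 0.866 times the level of JAK1 in MDA-MB-231 and at 1.57 times its level in LM2-4175, and in neither cell line were the bounds of these kinases apart.

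JAK2 (ENSG00000096968.8, chr9:4984390-5129948, plus strand) was low, with 2.07 FPKM [1.32 to 2.82] in MDA-MB-231, compared with 1.66 FPKM [1.05 to 2.26] in LM2-4175. The ratio of 0.799 was close to that of JAK1, and JAK1 was at 20.9 times the level of JAK2 in MDA-MB-231 and at 20.8 times in LM2-4175. JAK3 (ENSG00000105639.14, chr19:17935589-17958880, minus strand), a kinase known mainly from lymphocytes, was at 0.207 FPKM [0.0645 to 0.3501] in MDA-MB-231, compared with 0.332 FPKM [0.168 to 0.495] in LM2-4175. Neither value reached the minimum of 0.5 FPKM, so JAK3 was not tested. Its ratio of 1.60 had bounds that allow 0.481 to 7.67. IL2RG, the common gamma chain with which JAK3 works, was likewise near 0, with 0.205 and 0.182 FPKM.

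Read as shares of a family, the summed level of the JAK genes was 83.0 FPKM in MDA-MB-231 and 90.5 FPKM in LM2-4175. In MDA-MB-231 JAK1 made up 52.1% of this sum, against 38.1% in LM2-4175, while TYK2 made up 45.2% and 59.7%. JAK2 held 2.50% and 1.83%, and JAK3 0.250% and 0.366%. These shares are fractions of summed FPKM and have no error of their own.

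**Figure D2:**
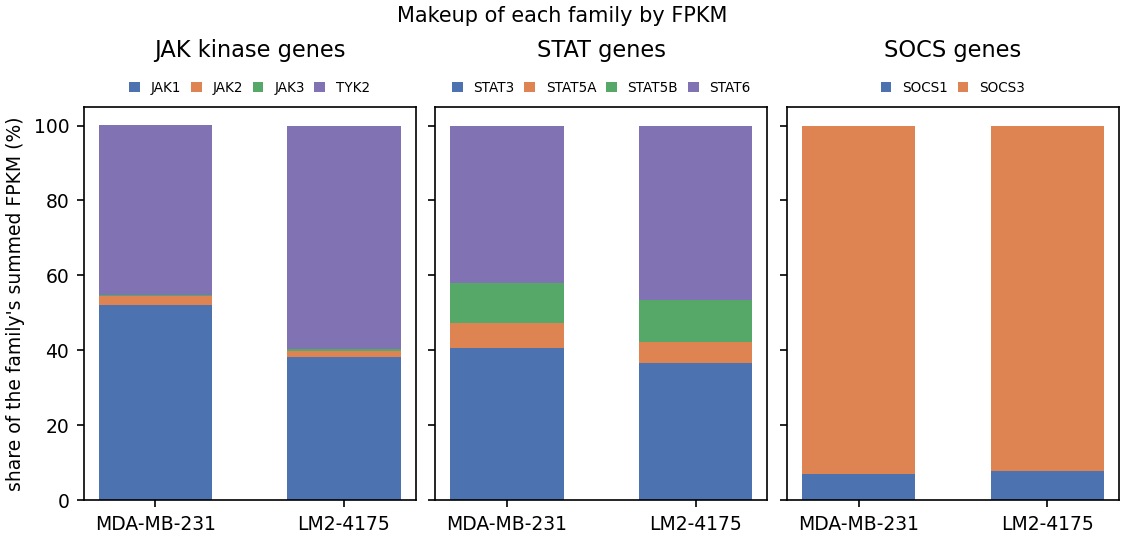
Share of each gene in the summed FPKM of its family (%), for the JAK, STAT and SOCS genes in each cell line. The TYK2 share of the JAK genes is 45.2% in MDA-MB-231 against 59.7% in LM2-4175, JAK3 is too low to be seen in MDA-MB-231, and the STAT and SOCS columns differ less between the cell lines.

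The median size of the log2 ratio of FPKM + 1 was 0.14 over the 4 STAT genes, 0.32 over the 3 JAK genes tested and 0.27 over the 2 SOCS genes. STAT3 (ENSG00000168610.10, chr17:40465342-40540558, minus strand), the factor that IL-6 family cytokines activate through JAK1, was at 50.5 FPKM [34.8 to 66.2] in MDA-MB-231, compared with 46.3 FPKM [32.7 to 59.8] in LM2-4175. Its ratio was 0.916, the bounds allow 0.495 to 1.72, and 83.7% of tested genes were lower than STAT3 in each cell line. On the log2 scale the difference was -0.12, which became 0.00 when both profiles were quantile normalised.

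STAT6 (ENSG00000166888.6, chr12:57489191-57525922, minus strand), the factor of IL-4 and IL-13, was the highest of the 10 genes in both cell lines. It was at 52.4 FPKM [33.0 to 71.8] in MDA-MB-231, compared with 58.7 FPKM [27.0 to 90.5] in LM2-4175, with a ratio of 1.12. The bounds allow 0.376 to 2.75, and those of STAT3 overlapped them in each cell line. The interval that the table gives for STAT6 spans 124458 bases, against 36732 bases in the annotation, and 1.8% of its exon bases are shared with the neighbouring genes NAB2 and LRP1.

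STAT5A and STAT5B lie next to each other on chromosome 17 and encode close paralogues that prolactin, growth hormone and several interleukins activate. STAT5A (ENSG00000126561.12, chr17:40439565-40463961, plus strand) was at 8.23 FPKM [5.34 to 11.1] in MDA-MB-231, compared with 6.90 FPKM [4.63 to 9.17] in LM2-4175. STAT5B (ENSG00000173757.5, chr17:40351194-40440651, minus strand) was at 13.4 FPKM [9.40 to 17.5] in MDA-MB-231, compared with 14.2 FPKM [9.82 to 18.5] in LM2-4175. The ratios between the cell lines were 0.838 for STAT5A (bounds allow 0.416 to 1.72) and 1.05 for STAT5B (0.562 to 1.97). STAT5B was the higher of the pair in both cell lines, at 1.63 times the level of STAT5A in MDA-MB-231 with overlapping bounds and at 2.05 times in LM2-4175 with bounds apart.

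The division between the STAT5 genes is uncertain at the sequence level. Their canonical transcripts have 280 windows of 150 bases, the read length, in common, which is 7.73% of the windows of STAT5A and 5.68% of those of STAT5B. Their exons also overlap in the genome, over 6.5% of the exon bases of STAT5A and 3.4% of those of STAT5B, and the sources used here do not say whether strand was used in counting. No other gene of the 10 shared a window of 150 bases with another transcript. In all, the 4 STAT genes summed to 124.5 FPKM in MDA-MB-231 and 126.1 FPKM in LM2-4175. STAT6 held 42.0% and 46.6% of the sum, STAT3 40.6% and 36.7%, STAT5B 10.8% and 11.2%, and STAT5A 6.61% and 5.47%.

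Both feedback inhibitors were listed lower in LM2-4175 without being called. SOCS3 (ENSG00000184557.3, chr17:76352859-76356158, minus strand), whose protein binds the IL-6 receptor chain gp130 and which STAT3 is known to induce, was at 27.7 FPKM [21.3 to 34.1] in MDA-MB-231, compared with 21.0 FPKM [16.1 to 25.9] in LM2-4175. The ratio was 0.758, and its log2 ratio of -0.38 was the largest decrease among the 9 genes. SOCS3 had the narrowest bounds of the 10 genes relative to its level. They allow ratios from 0.471 to 1.22, so that a level in LM2-4175 of more than 1.22 times that of MDA-MB-231 lies outside the bounds. A decrease to 0.622 would have set the bounds apart.

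SOCS1 (ENSG00000185338.4, chr16:11348274-11350061, minus strand), an inhibitor of the JAK kinases that interferons are known to induce, was at 2.12 FPKM [0.425 to 3.81] in MDA-MB-231, compared with 1.79 FPKM [0.211 to 3.38] in LM2-4175. Its ratio was 0.848, but the bounds allow anything from 0.0553 to 7.95, the widest range of the 10 genes. The upper bound lay 79.9% above the FPKM in MDA-MB-231 and 88.3% above it in LM2-4175. The table gives SOCS1 an interval of 102144 bases, against 1788 bases for the annotated gene. Whether these wide intervals affect the FPKM of SOCS1 and STAT6, and with it the place of STAT6 at the top, was not tested. SOCS3 was at 13.1 times the level of SOCS1 in MDA-MB-231 and at 11.7 times in LM2-4175, and held 92.9% and 92.1% of the sum of the pair.

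**Figure D3:**
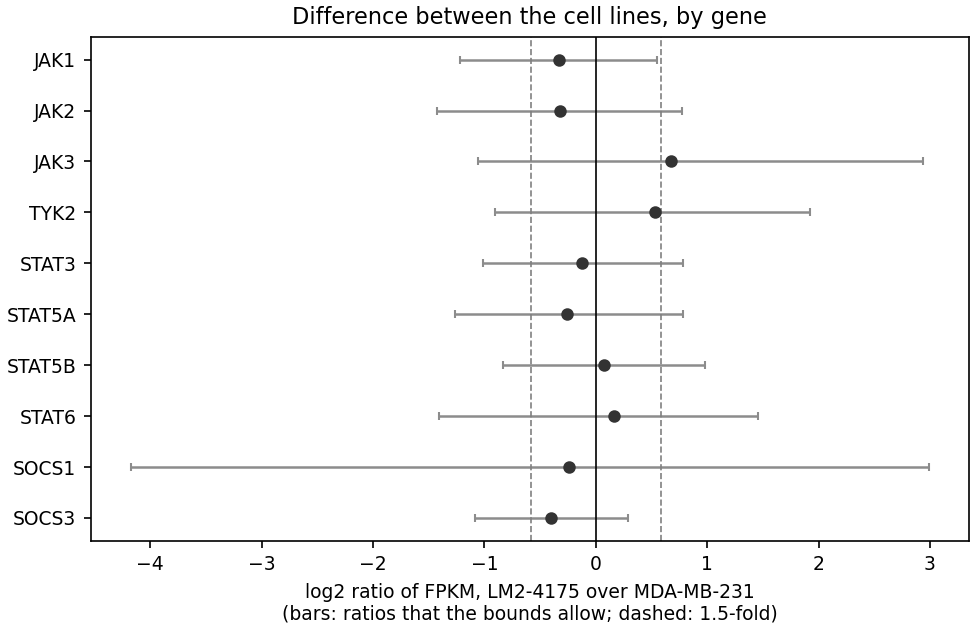
Log2 ratio of FPKM in LM2-4175 over MDA-MB-231 for each gene (points). Bars span the ratios that the authors' bounds allow, the solid line marks equal levels and dashed lines mark 1.5-fold. Each bar crosses 0, from the narrowest for SOCS3 (ratios of 0.471 to 1.22) to the widest for SOCS1 (0.0553 to 7.95), and JAK3 was not tested because of its low level.

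Ranked within MDA-MB-231, the order was STAT6, STAT3, JAK1, TYK2, SOCS3, STAT5B, STAT5A, SOCS1, JAK2 and JAK3. Neighbours in this order had bounds apart at only 3 steps, from SOCS3 to STAT5B, from STAT5A to SOCS1 and from JAK2 to JAK3. In LM2-4175 the order was STAT6, TYK2, STAT3, JAK1, SOCS3, STAT5B, STAT5A, SOCS1, JAK2 and JAK3, and TYK2 was the only gene that moved past others. Here the steps with bounds apart were from STAT5B to STAT5A, from STAT5A to SOCS1 and from JAK2 to JAK3, while SOCS3 and STAT5B overlapped.

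The other genes of the pathway were taken from lists by role. Of 104 genes in all lists, 76 passed the filter on low values, 11 were called higher and 8 lower in LM2-4175 (background 4.67% and 4.61%), and their median log2 ratio was -0.01. The IL-6 family ligands, which signal through gp130, JAK1 and STAT3, held 4 of the 11 increases. Of 10 ligand genes 8 were tested, of which 4 were called higher, against a background of 4.67%, and none was called lower. This list, like the others, was chosen with earlier results of these data known, so the count is descriptive only. The median log2 ratio of the 8 genes was 1.13.

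IL6 was at 12.6 FPKM [6.78 to 18.3] in MDA-MB-231, compared with 245.2 FPKM [182.4 to 308.0] in LM2-4175, a ratio of 19.5. IL11, a related cytokine known from bone metastasis of breast cancer, was at 16.2 FPKM [11.6 to 20.8] and 88.6 FPKM [66.2 to 110.9]. LIF, which uses the LIF receptor with gp130, was at 19.3 FPKM [10.8 to 27.7] and 83.6 FPKM [48.3 to 118.8]. All of these levels were higher in LM2-4175 with bounds well apart. EBI3, a subunit of IL-27 and IL-35, was at 2.61 FPKM [1.58 to 3.65] and 9.30 FPKM [6.501 to 12.1]. The gene IL27, on the same list, was at 0 FPKM in both cell lines. The remaining ligands of at least 1 FPKM were not called, with CLCF1 at 13.9 and 17.1 FPKM, CTF1 at 4.49 and 3.24 FPKM and CNTF at 0.823 and 2.05 FPKM. Other annotated genes share 9.9% of the exon bases of IL6, among them IL6-AS1, and 4.4% of those of LIF.

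The receptor chains for these ligands differed less. IL6ST, which encodes gp130, was at 70.6 FPKM [28.7 to 112.5] in MDA-MB-231, compared with 82.8 FPKM [43.6 to 122.0] in LM2-4175, and OSMR was at 40.1 and 39.3 FPKM. LIFR was at 10.5 FPKM [7.502 to 13.4] and 6.04 FPKM [4.45 to 7.64], with bounds that overlapped narrowly, IL27RA was at 7.20 and 7.25 FPKM and IL11RA at 2.22 and 4.63 FPKM. None of these 5 was called. IL6R, the chain that binds IL-6 itself, was the 1 of 6 receptor chains called, from 0.340 FPKM [0 to 0.712] in MDA-MB-231 to 1.63 FPKM [0.961 to 2.30] in LM2-4175. IL6R passed the filter through its level in LM2-4175, and with a minimum mean of 1 FPKM it was not tested. The background of genes called higher was 4.67%.

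Each of the other receptor lists held at most 1 call, beside a background of 4.67% called higher and 4.61% called lower. Counts this small do not set a list apart from the rest of the transcriptome. In the interferon and IL-10 receptor list, 6 of 10 genes were tested, 1 was called lower and their median log2 ratio was -0.63. That gene was IFNGR2, a chain of the interferon gamma receptor, at 54.1 FPKM [38.1 to 70.0] and 25.8 FPKM [17.8 to 33.7], and 15.0% of its exon bases are shared with TMEM50B. All tested genes of this list that were lower, IFNGR2, IFNAR1, IFNAR2 and IL10RB, lie close together on chromosome 21. IFNAR2 and IL10RB share 27.7% and 21.6% of their exon bases with other annotated genes. IFNGR1 and IFNLR1, on other chromosomes, were listed higher with log2 ratios of 0.36 and 0.31. In the common gamma chain list, 5 of 10 genes were tested and 1 was called, IL2RB, from 0.489 FPKM [0 to 1.06] to 3.09 FPKM [1.26 to 4.92], which also passed the filter through LM2-4175. Of the receptors that act mainly through JAK2 only 3 of 10 were tested and none was called. EPOR, the erythropoietin receptor, differed most among them, at 3.51 FPKM [1.98 to 5.04] and 7.42 FPKM [4.54 to 10.3].

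Among the other SOCS genes and CISH, 4 of 6 were listed higher and 2 lower. For the calls in this and the following lists, the background in either direction was 9.27%. SOCS6, whose protein acts mostly on receptor tyrosine kinases, was the 1 gene called, at 11.9 FPKM [8.70 to 15.2] in MDA-MB-231, compared with 4.195 FPKM [2.97 to 5.42] in LM2-4175. Of the PIAS genes, which encode inhibitors of DNA binding by STATs, none of 4 was called, and PIAS2 differed most with 7.22 FPKM [4.89 to 9.54] and 3.86 FPKM [2.42 to 5.30]. Among phosphatases and adaptors 1 of 11 tested was called. This was SH2B3, an adaptor that restrains JAK2, at 29.0 FPKM [22.0 to 36.0] and 83.5 FPKM [63.9 to 103.0].

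Known target genes of the STATs were called in both directions. Of 20 STAT3 targets, 19 were tested, 3 were called higher and 4 lower (background 4.67% and 4.61%), and their median log2 ratio was 0.10. VEGFA, the vascular growth factor, was at 37.1 FPKM [24.3 to 49.8] in MDA-MB-231, compared with 242.8 FPKM [152.6 to 333.0] in LM2-4175. CEBPB, a transcription factor of the acute phase response, was at 5.45 FPKM [3.86 to 7.03] and 22.8 FPKM [17.3 to 28.3], and ICAM1, an adhesion molecule, was at 30.9 FPKM [13.6 to 48.1] and 91.5 FPKM [66.9 to 116.1]. FOS, an immediate early gene, was lower, at 17.6 FPKM [12.6 to 22.7] and 2.99 FPKM [1.84 to 4.14]. PIM1, TIMP1 and SERPINA3 were the other targets called lower, with log2 ratios of -1.03, -0.98 and -0.91, of which the last 2 were named after their values were seen. SERPINA3 passed the filter through MDA-MB-231, with 1.62 FPKM there and 0.389 FPKM in LM2-4175. Most of these genes answer to other factors as well, so that the list is not specific to STAT3.

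Of 11 STAT5 targets 8 were tested, none was called higher and 3 were called lower, against a background of 4.61%. PIM1 is on the STAT3 list as well and is the same call as there, so this list is not specific to STAT5. ID1, an inhibitor of differentiation, was at 68.5 FPKM [51.7 to 85.4] and 18.1 FPKM [13.2 to 23.0], the kinase gene PIM1 at 36.7 FPKM [25.0 to 48.3] and 17.4 FPKM [11.5 to 23.4], and PIM2 at 16.4 FPKM [12.3 to 20.5] and 9.62 FPKM [7.02 to 12.2]. The bounds of PIM2 were only just apart and allow ratios up to 0.993. It was not called when the profiles were scaled to the same sum, centred or quantile normalised. Its log2 ratios were then -0.66, -0.67 and -0.67, still past 1.5-fold, but the bounds overlapped. Of 10 STAT6 targets 5 were tested and 1 was called, against a background of 4.67% called higher. It was the mucin gene MUC5AC, from 0.2004 FPKM [0.0735 to 0.327] to 2.90 FPKM [1.96 to 3.84], which passed the filter through LM2-4175.

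**Figure D4:**
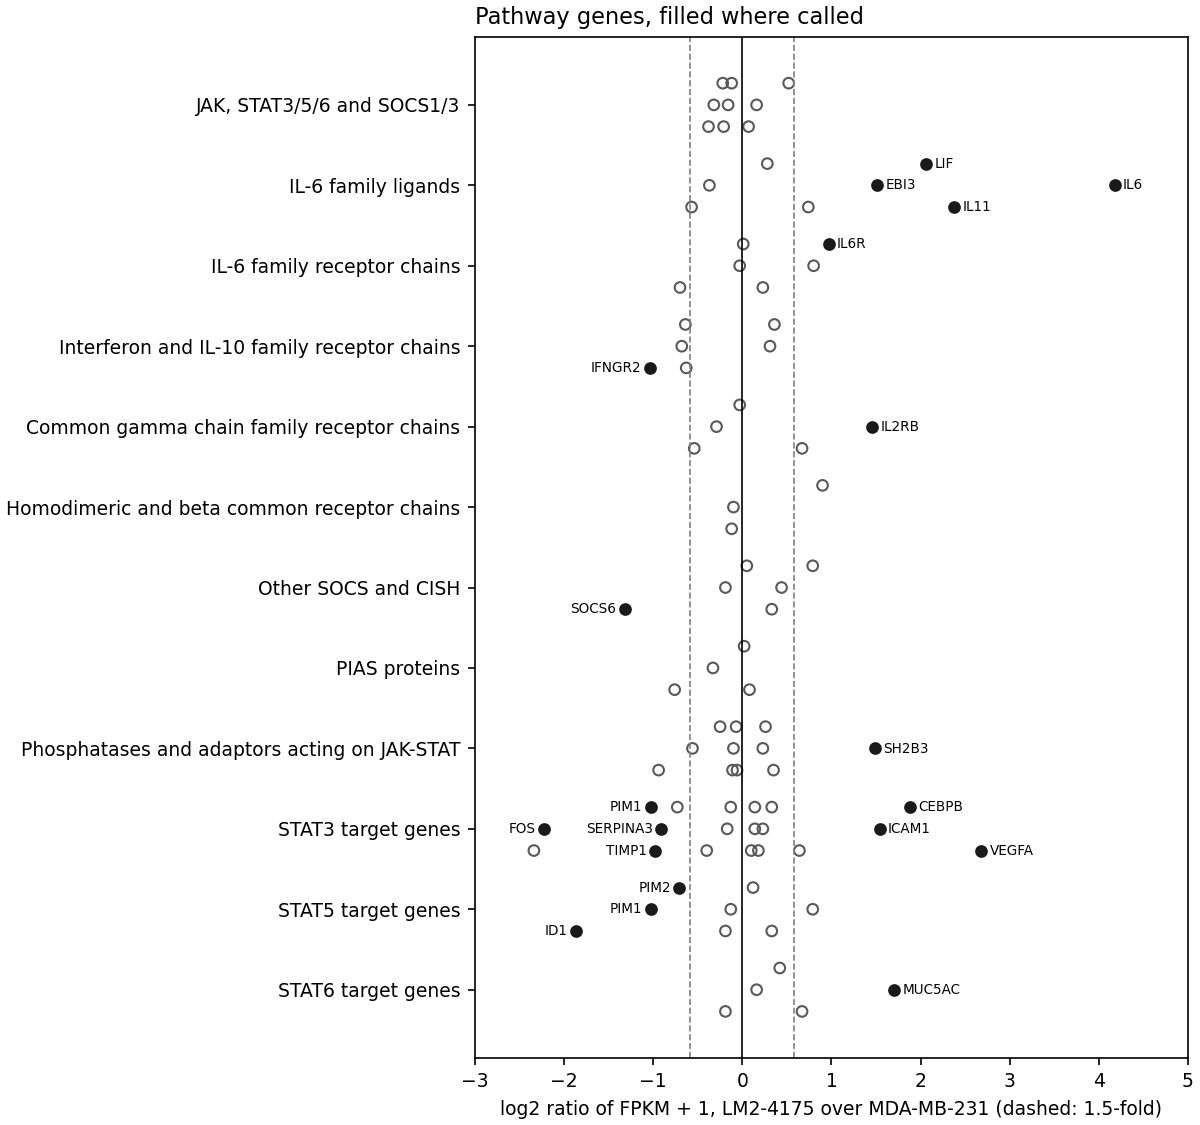
Log2 ratio of FPKM + 1 in LM2-4175 over MDA-MB-231 for the 9 tested JAK, STAT and SOCS genes (top row) and for the tested genes of the pathway lists described here, 1 circle per gene. Filled circles with names are genes of at least 1.5-fold (dashed lines) whose bounds do not overlap, and open circles are all others. All circles of the top row lie between the dashed lines, whereas IL6, IL11, LIF and EBI3 lie to the right and the STAT3 targets reach to both sides.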

How the data were processed

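Total RNA of 2 libraries per cell line (4 in all) was sequenced by the authors with paired reads of 150 bases, aligned to hg19 with TopHat 2.0 and quantified on GENCODE 19 with Cufflinks. The deposited values are FPKM, 1 per gene and cell line, with confidence bounds (the lower and the upper limit) and a status. Normalization between libraries and strand are not given in the sources used here, and the authors' fold changes and q-values were not used.

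Log2 ratios of FPKM + 1 were computed with Python 3.11.15, NumPy 2.4.6 and pandas 2.3.3 and drawn with Matplotlib 3.10.9. Genes of status OK and a mean of at least 0.5 FPKM were tested over the whole table. A call needed 1.5-fold and bounds that did not overlap. limma had been planned and could not be run on 1 value per cell line. Positions, exon overlaps and sequences came from GRCh37 with GENCODE 44, in which 55535 of 57815 gene IDs were found. The call rule was also run on simulated data. Their noise was scaled from the authors' bounds and not from the spread between libraries, so the run gives no error rate for these calls.

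The 10 genes and the lists were chosen with earlier results of these data known. Named were all 10 genes, of each list the genes called (at most the 4 largest) or else the gene of the largest change, and IL-6 family ligands and receptors with a mean of at least 1 FPKM. Some results that this rule names, and some promoter windows and patterns, are not reported here.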

Additional observations from a re-analysis of the deposited data

How the results depend on the processing

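No gene of the 10 was called under 11 of the 12 alternatives (other pseudocounts, filters, folds and scalings, the fold alone and the bounds alone). The deposited bounds overlapped for each of the 10 genes, so that only the fold alone and the scalings could have given a call. Of the 11 alternatives 1, the minimum mean of 5 FPKM, was not planned. With the fold alone on the ratio without a pseudocount and without a filter, an alternative chosen after seeing the data, 1 gene was called, JAK3 with a log2 ratio of 0.68. Under quantile normalization STAT3 moved from -0.12 to 0.00. TYK2 ranged from 0.52 to 0.63 and SOCS3 from -0.40 to -0.31. Of 76 tested genes of the lists 19 were called, but 34 by the fold alone (17 higher and 17 lower), beside 9.27% and 22.1% of all genes tested. With the fold alone and neither pseudocount nor filter, 52 of 104 were called (24 higher and 28 lower). The share of all genes called in that way was not computed. Calls of IL2RB, IL6R, MUC5AC, PIM2, SERPINA3 and TIMP1 were lost under 1 or more alternatives. Those of IL2RB and MUC5AC were lost only under the unplanned minimum mean of 5 FPKM. Scaled to the same sum, 735 genes were called higher and 547 lower, against 649 and 641 as deposited. No paired analysis was possible because each cell line has only 1 value made from its pooled libraries, and leaving out a replicate was not run for the same reason. The width of the bounds limits what can be seen, to ratios of at least 15.3 or at most 0.107 for SOCS1.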

Other observations

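The chromosomal neighbours of the pathway genes were counted after the values were seen. Over all genes tested, 54.5% were lower in LM2-4175 and the median log2 ratio was -0.04, with 4.67% called higher and 4.61% lower. Of the protein-coding genes that start within 1 Mb of a gene, those around JAK1 were listed lower in LM2-4175 in 6 of 7 cases, with a median log2 ratio of -0.47, beside -0.32 for JAK1 itself. Of these 7 neighbours 1 was called higher and 1 lower. Around JAK2 on chromosome 9, 8 of 11 were higher with a median of 0.12. The neighbourhoods of TYK2, STAT3 and STAT6 held 50, 50 and 48 tested genes with medians of 0.00, 0.02 and 0.09, and those of SOCS1 and SOCS3 had medians of -0.15 and -0.16.

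Around IL6 on chromosome 7 all 11 tested neighbours were listed higher in LM2-4175, with a median of 0.50, and 1 of them was called. The background was 54.5% of all genes tested listed lower and 9.27% called in either direction. In a stretch of so few genes, 1 call does not set it apart from this background. Around LIF and IL11, the medians were 0.10 and -0.11, with 23 of 33 and 14 of 34 neighbours higher. Around IFNGR2 on chromosome 21, 17 of 20 were lower with a median of -0.38, and 1 was called. The receptor genes IFNAR1, IFNAR2 and IL10RB are among these 17 lower neighbours and add no further genes to the count. They had log2 ratios of -0.64, -0.68 and -0.63 and were not called.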
